A study of Rattus norvegicus with 6 samples.

Results

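The T-cell receptor alpha window of rat chromosome 15 was defined as the genes of the Rnor_6.0 counting annotation whose smallest exon start lies from 29300000 to 32200000, a stretch of 2900 kb. It held 150 of the 38445 genes counted. The genes were thus chosen by position, and the window itself was selected on chromatin values: it is where many promoter peaks that opened after ethanol lie in the same study's assay for transposase-accessible chromatin (ATAC-seq). Those peaks came from a separate cohort of rats. The rule uses no RNA count, but earlier results from these counts were known when the window was set.

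RNA was taken from the amygdala (central, medial and basolateral nuclei) of adult male Sprague-Dawley rats, 1 h after an intraperitoneal injection of saline (control) or of ethanol at 1 g/kg. Each library holds the RNA of 2 rats, 6 rats and 3 libraries making up a group, and the spread between libraries is a spread between pools. The library totals were 62576504 to 70755739 reads assigned to genes. At these totals, 3 counts, taken as the most that a count of 0 allows, equal 0.0424 to 0.0479 CPM, the usual unit of counts relative to the library total. Such floors cover counting error only.

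The receptor alpha locus holds a long array of variable (V) gene segments, followed by joining segments and a constant region, and the receptor delta genes lie within the same stretch of chromosome. In a developing T cell, RAG enzymes join a V segment to a joining segment, and the product is transcribed through the constant region and paired with a beta chain at the cell surface. Each V segment has its own promoter and is usually built as a short leader exon, a small intron and a V exon. Outside the T lineage the segments stay unjoined, and healthy brain tissue contains few T cells.

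In the number of blocks and the gap between them, most of the window's annotation follows that build. First blocks were not all short, with 296 bases in Travl2 and 2094 bases in Tcrva8. Of the 150 genes, 129 had 2 exonic blocks, and the gap between the blocks was 148 bases at the median (range 91 to 95533). Exonic length was 1014 bases at the median (range 51 to 4081). The genes form 2 arrays in opposite orientation. Up to position 30385306, 48 of the 49 minus-strand genes lie with a single plus-strand gene, and from position 30411880 on there are 100 plus-strand genes and 1 minus-strand gene. A RefSeq gene entry was found for 31 of the genes, and 29 of these entries are V segments. Another 10 genes could be named from the study's peak annotation, and 109 stayed without a name.

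Most of the window gave no reads. In every library, 108 of the 150 genes (72%) were at 0. A gene was called detected when it had 10 or more counts in at least 3 of the 6 libraries, and 12 genes (8%) met this, against 18239 of all 38445 genes (47.4%). The neighbouring stretches of equal width held 31 detected genes of 132 (23.5%) on the side of lower coordinates and 74 of 139 (53.2%) on the side of higher coordinates. The second of these stretches is not free of receptor genes. It holds Trdcl, the constant region of the delta chain, which starts at 32769124, so the window is not the whole locus. Of the remaining 30 genes, 28 never passed 9 counts in a library, and LOC688340 and LOC102556508 reached 10 counts in 1 library each, with a highest count of 11. Reads that aligned to several places were not counted, and V segments resemble each other closely, so a 0 here means no uniquely placed read. Of the 150 genes, 18 had the same exon and intron lengths as another gene of the window or of the stretches beside it. None of the 12 detected genes was among them. Equal lengths do not measure likeness of sequence, which was not tested. The detected genes LOC684995 and LOC290156, for example, had the same gap (159 bases) and second block (811 bases).

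**Figure D1:**
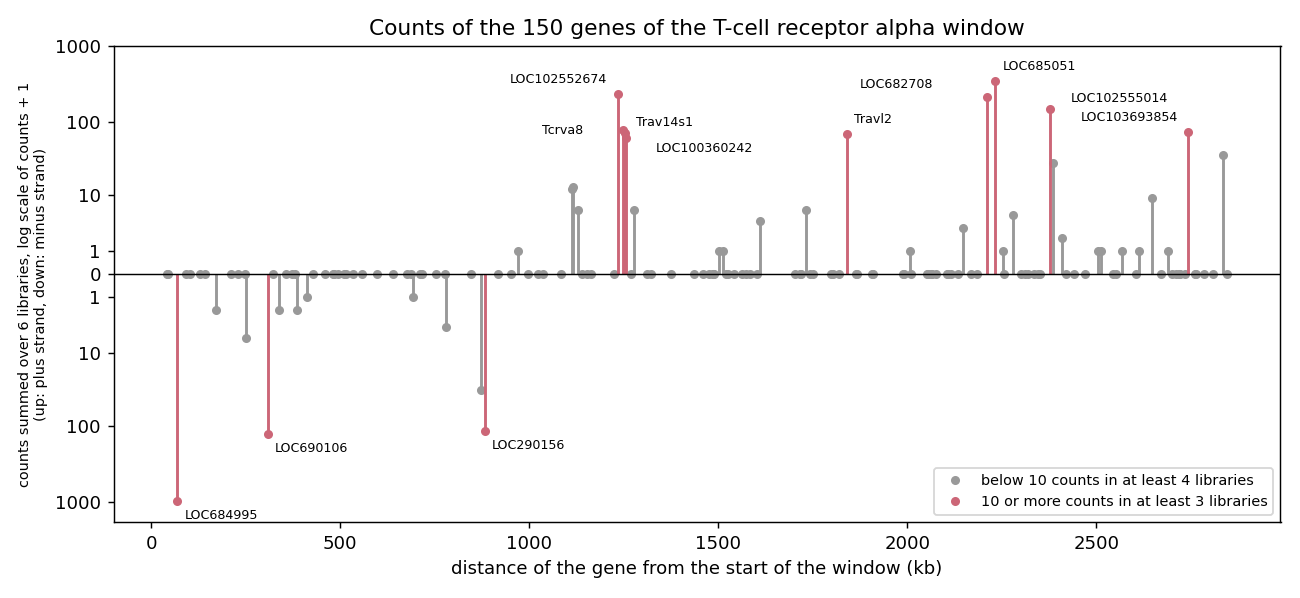
Counts of each of the 150 genes summed over the 6 libraries (vertical axis, logarithmic in counts + 1, plus strand upwards and minus strand downwards) against distance from the start of the window in kb. Red marks the 12 genes with 10 or more counts in at least 3 libraries, of which 3 lie in the minus-strand array and 9 in the plus-strand array.

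The detected genes were scattered over both arrays rather than forming 1 block. LOC684995, LOC690106 and LOC290156 lie alone in the minus-strand array, at 29368483 to 29370193, 29607694 to 29609764 and 30182865 to 30184106. LOC290156 sits within the span of LOC688340 (30172982 to 30197379) on the same strand, and the pair share no exonic base. At the low-coordinate end of the plus-strand array, LOC102552674, Tcrva8, Trav14s1 and LOC100360242 were 4 neighbouring genes that were all detected, within 30.2 kb (30534713 to 30564897). LOC682708 and LOC685051 were a second such run, within 24.0 kb (31510701 to 31534725). Travl2 (31140892 to 31142222), LOC102555014 (31676255 to 31679034) and LOC103693854 (32043806 to 32051636) stood alone.

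Of the 12 detected genes, 10 had the layout of 2 exonic blocks. The exceptions were LOC100360242 and LOC103693854, with 4 blocks each. LOC684995, LOC290156, LOC682708 and LOC102555014 all carried a gap of 159 bases between their blocks, a length found in 9 genes of the window. LOC690106 and LOC685051 were the only genes with a gap of 169 bases. Both lengths therefore occurred in each array. Exonic length was 1667 bases at the median in detected genes and 978.5 in the others, and longer genes collect more reads at an equal level. RefSeq names LOC290156, Travl2, LOC682708 and LOC102555014 as V segments, so 4 of the 29 V segment entries of the window were detected. Among V segments annotated elsewhere, at the other receptor and immunoglobulin loci and beside the window, 2 of 188 were detected (1.06%). By chromosome, these were 1 of 9 on chromosome 15 outside the window, 0 of 105 on chromosome 4 and 1 of 74 on chromosome 6. Detection was thus not particular to the window on chromosome 15, though 9 genes are few. The detected gene on chromosome 15, LOC685078, had 34, 48 and 52 counts in the controls and 40, 59 and 40 after ethanol.

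All levels were low. CPM divided by the exonic length in kilobases (RPKM) allows levels to be set side by side between genes, and the 12 detected genes had mean levels of 0.0473 to 1.59 RPKM over the 6 libraries. All 12 were below 5.18 RPKM, the median of the genes tested. LOC684995 was highest at 1.59 RPKM, followed by LOC102552674 (0.807), LOC685051 (0.484), LOC682708 (0.370) and LOC290156 (0.271). In control 1 the order of the first pair was turned, with 0.877 RPKM of LOC684995 and 1.03 RPKM of LOC102552674, and in every other library LOC684995 was the higher. The ranges of LOC102552674 (0.514 to 1.03) and LOC685051 (0.223 to 0.752) also overlapped. LOC103693854, the longest of the 12 with 3887 exonic bases, was lowest at 0.0473 RPKM.

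LOC684995 and LOC685051 together took 35.5% to 53.4% of all counts of the window in a library. LOC684995 had 89, 230 and 149 counts in control libraries 1, 2 and 3, and 155, 207 and 155 in ethanol libraries 1, 2 and 3. LOC685051 had 26, 70 and 70 counts in the controls and 86, 44 and 46 after ethanol. Control 1 was the lowest library for both genes, while the highest was control 2 for LOC684995 and ethanol 1 for LOC685051. Their libraries differed far more within a group than counting error allows, the chi-square per degree of freedom being 16.3 for LOC684995 and 11.1 for LOC685051, where counting error alone gives about 1. LOC682708, the neighbour of LOC685051, had 17, 44 and 35 counts in the controls and 46, 29 and 41 after ethanol. It had control 1 as its lowest and ethanol 1 as its highest library too.

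The other detected genes had at most 49 counts in any library. LOC102552674, the second highest per length, had 49, 41 and 46 counts in the controls and 38, 32 and 26 after ethanol. LOC690106 had 17, 30 and 24 counts in the controls and 26, 15 and 14 after ethanol. LOC290156, a V segment, had 21, 15 and 20 counts against 22, 22 and 16. For each of the 3 genes the ranges of the groups overlapped once the counts were scaled to the library totals. LOC102555014, a V segment, had 19, 31 and 19 counts in the controls and 38, 23 and 17 after ethanol. Travl2, another V segment, had 8, 16 and 14 counts against 12, 13 and 5. Both spread widely after ethanol, with library 1 or 2 highest and library 3 lowest.

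Tcrva8 and Trav14s1, named as receptor alpha V genes, lie next to each other but did not share an order of libraries. Tcrva8 had 10, 14 and 12 counts in the controls and 11, 22 and 8 after ethanol, with ethanol 2 highest. Trav14s1 had 14, 10 and 9 counts against 19, 13 and 6, with ethanol 1 highest. LOC100360242, the last of this run, had 9, 16 and 6 counts against 12, 7 and 11. Over the 12 genes, 10 had a chi-square per degree of freedom above 1 within the groups (range 0.590 to 16.3, median 2.19).

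**Figure D2:**
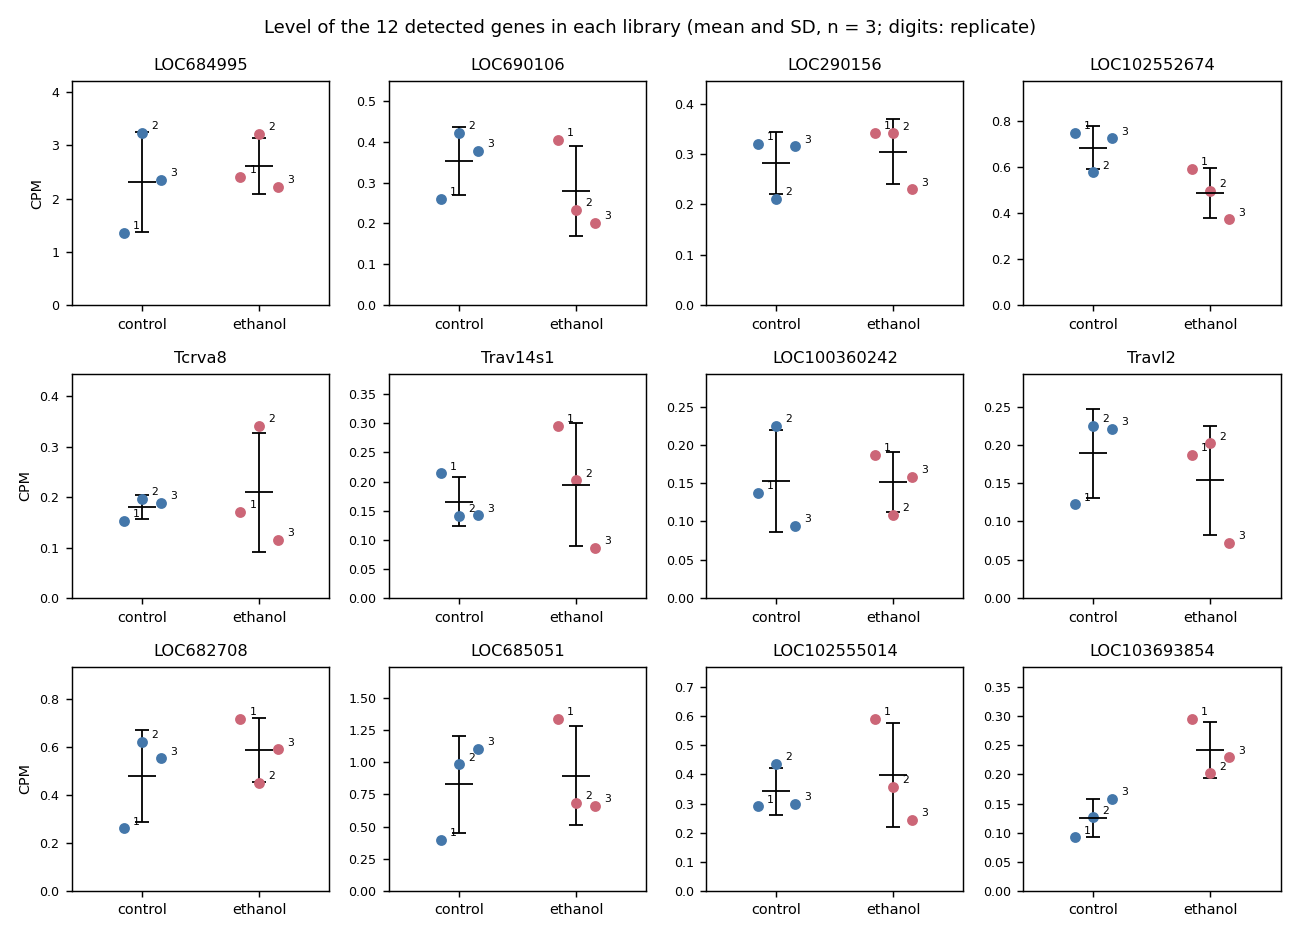
Level of each of the 12 detected genes in CPM (vertical axis, from 0, with a scale of its own per gene) in the 3 control (blue) and 3 ethanol (red) libraries. Points are libraries with their replicate number, the horizontal bar is the mean and the whiskers are the SD (n = 3). The groups overlap for 11 genes, and the ethanol libraries of LOC103693854 (0.202 to 0.296 CPM) all lie above its controls (0.0917 to 0.158 CPM).

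The comparison of the groups asked whether RNA of the genes in this window differed between ethanol and saline. The window's total did not separate them. Counts of all 150 genes summed to 324, 566 and 438 in the controls and 510, 470 and 393 after ethanol, which gave 6.61 ± 1.53 CPM (SD, n = 3) and 6.96 ± 1.19 CPM (SD, n = 3). The log2 difference of the means was 0.08, well within the spread of either group. Without LOC684995 and LOC685051, the sums were 3.46 ± 0.274 CPM (SD, n = 3) in the controls and 3.45 ± 0.718 CPM (SD, n = 3) after ethanol. In a dissected tissue, fewer cells of a type and less RNA per cell cannot be told apart.

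Gene by gene, exactly the 12 detected genes passed the filter on low counts and were tested among 18141 genes with edgeR's quasi-likelihood F test. After Benjamini-Hochberg adjustment over all genes, 0 of the 12 had an adjusted p below 0.2, and so had 0% of all genes tested. For each of the 12 the adjusted p was 0.9999, and over all genes the smallest was 0.818. At an unadjusted p below 0.05 there was 1 gene of the 12 (8.33%), higher after ethanol, against 4.15% of all genes tested (1.57% higher and 2.57% lower). In 1 gene of the 12 (8.33%), again higher, the groups did not overlap, against 8.85% of all genes (3.66% higher and 5.19% lower). In a group of 12, 1 gene is the smallest share above 0, and neither count stands apart from the background. The fold change was above 1 in 8 of the 12, where 52.6% of all genes were above 1 (with scaling by library total alone, 8 of the 12 and 41.7%). The 12 genes had a median of 0.14 on the log2 scale, beside 0.01 for all genes.

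That gene was in both cases LOC103693854, at the high-coordinate end of the window. It reached 10 counts in all 3 ethanol libraries but in 1 control. It thus passed the count limit through the group where it was higher. The counts of 1 in 12 rest on it, and it is among the 8 of 12 with a fold change above 1. It had 6, 9 and 10 counts in control libraries 1, 2 and 3, and 19, 13 and 16 counts in ethanol libraries 1, 2 and 3. All 3 ethanol libraries lay above all 3 controls. Its level was 0.125 ± 0.033 CPM (SD, n = 3) in the controls and 0.243 ± 0.048 CPM (SD, n = 3) after ethanol. The log2 fold change was 0.94 (SE 0.32, 95% interval 0.19 to 1.70), a fold of 1.92, with edgeR's unadjusted p = 0.0204. This did not pass the adjustment over all genes, and the 2-sided exact permutation test gave p = 0.1, the smallest that 3 libraries against 3 can give. The unadjusted p was 0.0752 without control 1, 0.0774 without ethanol 1 and 0.121 with DESeq2. The files and the reference table give no function for LOC103693854. It is outside the 2-block layout of the V genes and was the least abundant per length of the 12.

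The largest difference in the other direction was that of LOC102552674. Its level was 0.684 ± 0.0933 CPM (SD, n = 3) in the controls and 0.488 ± 0.110 CPM (SD, n = 3) with ethanol. On the log2 scale the change was -0.49 (SE 0.24, 95% interval -1.04 to 0.06). Its unadjusted p by edgeR was 0.0738, and 0.0453 without ethanol 1, and its groups overlapped, since ethanol 1 (0.592 CPM) lay above control 2 (0.577 CPM).

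For the other 10 genes the log2 fold change ran from -0.34 for LOC690106 (-0.70 without ethanol 1 and -0.15 without ethanol 3) to 0.29 for LOC682708, with unadjusted p from 0.342 to 0.950 by edgeR. LOC684995, with the most reads and so the least counting error, had a log2 fold change of 0.17 (SE 0.30, 95% interval -0.52 to 0.87). LOC290156 had 0.11 (SE 0.29, interval -0.56 to 0.78), and Travl2 had the widest reach below 0, with -0.32 (SE 0.44, interval -1.34 to 0.71). The intervals of all 10 genes held the span from -0.50 to 0.44, so no change within that span was excluded for any of them. Single intervals reached further, down to -1.34 for Travl2 and up to 1.29 for Trav14s1.

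**Figure D3:**
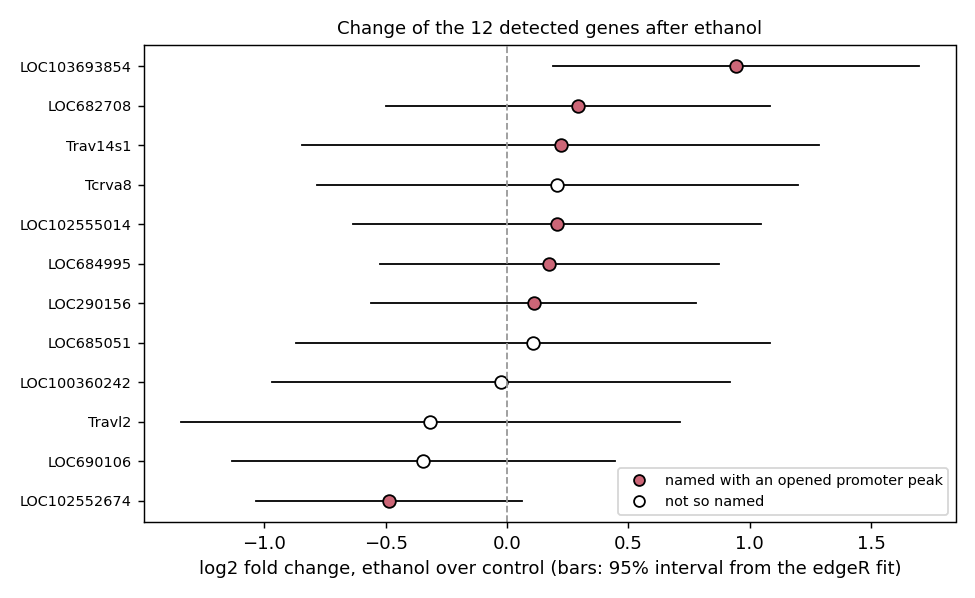
Log2 fold change of ethanol over control for the 12 detected genes (points), with 95% intervals from the edgeR fit (bars). Filled points are the 7 genes that the study names with a promoter peak that opened after ethanol, and only the interval of LOC103693854 (0.19 to 1.70) leaves out 0.

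The study names 9 genes of the window with a promoter peak that opened after ethanol, at a false discovery rate below 0.2. The peaks of LOC682708 and LOC102552674 did not reach 0.05, the limit behind the study's count of opened peaks. Of the 9 genes, 7 were detected and tested. Of the 7, 6 had a log2 fold change above 0 and LOC102552674 had one below 0, with a median of 0.20. Of all genes, 52.6% were above 0. LOC103693854, among the 6, passed the count limit through the group where it was higher, which favours a change above 0. Without control 1, 4 of the 7 were above 0 (median 0.09), and without ethanol 1, also 4 (median 0.02). Of the 5 other tested genes, 2 were above 0 and 3 below, with a median of -0.03. The difference between the 7 and the 5 was not tested. LOC103693854 alone among the 7 was below an unadjusted p of 0.05. The 2 named genes under the count limit were LOC108353020, with 4, 8 and 1 counts in the controls and 4, 2 and 9 after ethanol, and LOC102556508, with 6, 5 and 3 counts against 7, 11 and 4. Both overlapped between the groups.

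Of the other receptor chains, 2 constant regions were matched by name, and both had 5 counts or fewer in every library. Trdcl, the constant region of the delta chain, had 3, 1 and 2 counts in the controls and 4, 1 and 5 after ethanol. Tcrg, a constant region of the gamma chain, had 0 counts in each control and 2, 1 and 1 after ethanol. No constant region of the alpha or beta chain was analysed here. The CD3 proteins carry the receptor's signal into the cell, and of Cd3d, Cd3e, Cd3g and Cd247, Cd3e was the only one of the 4 that was detected. It had 7, 1 and 11 counts in the controls and 23, 14 and 4 after ethanol (log2 fold change 1.11, SE 0.78, edgeR's unadjusted p = 0.197). The other 3 had 0 to 6 counts in a library.

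Genes that act in receptor signalling were mostly present, but many of them also work in other cells. Of 18 such genes 16 were tested, none was below an unadjusted p of 0.05, and the median change was -0.02 on the log2 scale. The 3 with the highest counts, Plcg1 (a phospholipase), Fyn and Csk (kinases), had log2 fold changes of -0.09, 0.06 and 0.05. In 1 of the 16 all ethanol libraries lay above the controls, against 3.66% of all genes tested, and 1 gene is the smallest share above 0. It was Csk, which restrains Src-family kinases (edgeR's unadjusted p = 0.391). The co-receptor genes Cd8a and Cd8b stayed under the limit, with at most 13 counts in a library.

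Genes of V(D)J recombination divided by role. Rag2, which cuts at the segments together with Rag1, and Ptcra, the surrogate alpha chain of immature T cells, were at 0 in all 6 libraries. Rag1 had 1 to 3 counts and Dntt, which adds bases at the joins, had 0 to 5. The 7 genes of general DNA end joining were all detected, Lig4 (DNA ligase), Xrcc5 and Xrcc6 (which hold broken ends) with the highest counts and log2 fold changes of -0.11, -0.01 and -0.06. None of the 7 was below an unadjusted p of 0.05. In 1 of the 7 all ethanol libraries lay below the controls, against 5.19% of all genes tested, and 1 gene is the smallest share above 0. It was Dclre1c (edgeR's unadjusted p = 0.370).

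Of 15 T cell markers, 6 were detected, and the 3 highest were Zap70, Tcf7 and Lck. The 15 summed to 14.8 to 16.9 CPM in the controls and 13.9 to 16.6 CPM after ethanol. Most of this sum came from Zap70, Tcf7 and Lck, with control means of 5.75, 3.62 and 3.39 CPM. It therefore says little about the markers with few counts. None of the 6 tested was below an unadjusted p of 0.05 by edgeR (median log2 fold change -0.0025). Of the 15, 7 also stand in the lists of the CD3 and signalling genes. Cd3d and Cd5 had 0 to 2 counts in a library. None of 7 natural killer and cytotoxic cell markers (0 to 7 counts, led by Klrb1b, Klrd1 and Nkg7) was detected. The 7 neuron markers were all detected, at 3719 to 5109 CPM summed, and had a median log2 fold change of 0.12 with none at an unadjusted p below 0.05. Of the neuron markers, Snap25, Syt1 and Slc17a7 had the most counts.

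RNA of markers of some other cell types of the dissected tissue differed between the libraries. The 9 choroid plexus markers, led by Ttr, Enpp2 and Clic6, summed to 785 to 1468 CPM in the controls and to 101, 127 and 728 CPM in ethanol libraries 1, 2 and 3. Of the 8 tested, 4 were lower after ethanol at an unadjusted p below 0.05 by edgeR, against 2.57% of all genes tested. In 4 of the 8, all ethanol libraries lay below the controls, against 5.19% of all genes. The median log2 change of the 8 was -1.78, while Otx2, which was not tested, had 0 or 1 count. The 5 red blood cell markers, led by Hba-a1, Hbb and Hba-a2, summed to 172 to 291 CPM in the controls and 297 to 332 CPM after ethanol. Of these, Hba-a1, a hemoglobin chain, had a log2 fold change of 0.44 with edgeR's unadjusted p = 0.0197, and the 3 others tested were above 0.05. This is 1 of 4 tested, against 1.57% of all genes tested that were higher at that limit. The 6 microglia markers, with Csf1r, P2ry12 and Cx3cr1 highest, had a median log2 change of 0.01. Among them Tmem119 alone was below an unadjusted p of 0.05, with a log2 fold change of 0.57 and edgeR's unadjusted p = 0.00683. This is 1 of 6 tested, again against 1.57% of all genes. In lists this small, 1 gene is the smallest share above 0. No gene of these lists had an adjusted p below 0.2. The part of these shifts in the values of LOC103693854 and of the other genes of the window was not tested.

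**Figure D4:**
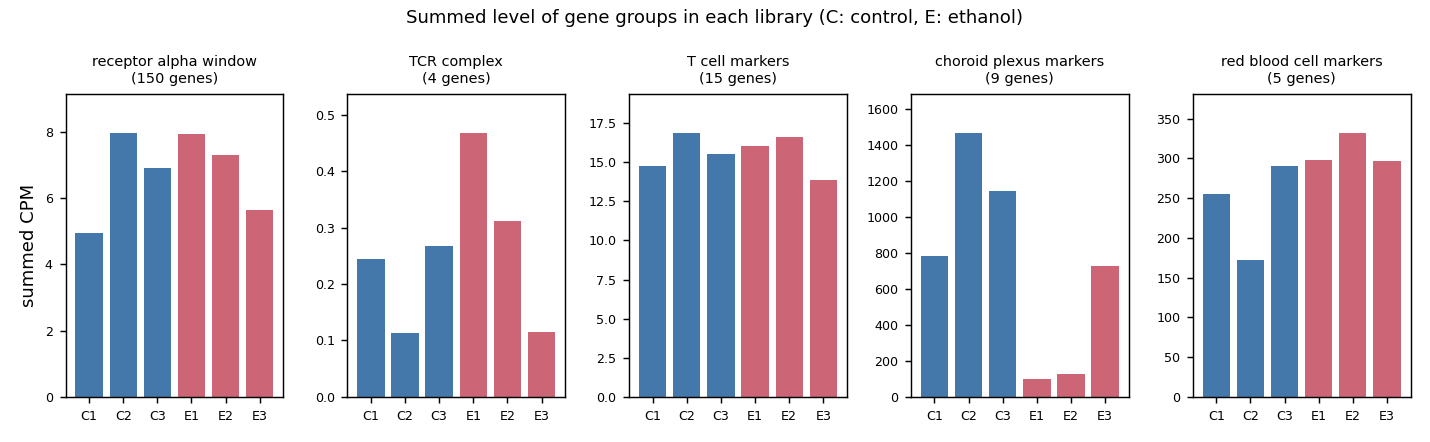
CPM summed over the 150 genes of the window and over 4 lists of markers (vertical axes, from 0, each with its own scale) in control libraries C1 to C3 (blue) and ethanol libraries E1 to E3 (red). The window and the T cell markers overlap between the groups, the choroid plexus markers are low in E1 and E2, and the red blood cell markers are higher in all 3 ethanol libraries.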

How the data were processed

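The authors pooled RNA of 2 male rats for each of 6 libraries (3 control, 3 ethanol; every library from other rats) and sequenced stranded single-end reads of 100 nt. The submitters' processing notes list STAR 2.7.0f, Subread 1.6.3, FastQC 0.11.8, edgeR and limma. Per the file headers, the deposited counts are whole reads per gene from featureCounts with strand setting 2, summed over exons of Rnor_6.0. Reads with several alignments, or overlapping several genes, were not counted, which can lower values of similar V segments. Whether it did so here was not tested. No normalization had been applied.

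The analysis used edgeR 4.0.16 in R 4.3.3: filterByExpr defaults, TMM scaling, the quasi-likelihood F test, Benjamini-Hochberg adjustment over all genes tested and a threshold of 0.2. The SE is the absolute log2 fold change divided by the square root of F, and intervals use the t quantile of the fit. CPM are scaled by TMM. Exact permutation tests used log2 CPM with a prior count of 2. The fits were tested on simulated data. Alternatives included DESeq2 1.42.0 and limma 3.58.1.

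The window and the marker lists were chosen with earlier results of these data known. The genes named are the detected genes of the window, the genes the study names with promoter peaks, receptor constant regions and the 3 genes of each list with the most counts. One marker list is not reported here. A few others (LOC688340, LOC685078, Tmem119, Dclre1c, Otx2 and the single low T cell, recombination and co-receptor genes) were named after their values were seen. Names came from a RefSeq gene table (assembly GRCr8, used for names only) and the study's peak annotation. No 2 libraries of a group agreed within counting error.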

Additional observations from a re-analysis of the deposited data

How the results depend on the processing

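The count of genes of the window with an adjusted p below 0.2 was 0 under all 14 alternatives. Over all genes that count rose from 0 to 77 with edgeR's likelihood ratio test and 75 with DESeq2, and ran from 0 to 83 when 1 library was left out (83 without ethanol replicate 3, 4 without ethanol replicate 1). The count with an unadjusted p below 0.05 fell to 0 with DESeq2 and was 0 to 1 when 1 library was left out (0 without control replicate 1). The count whose groups do not overlap was 2 with no filter on low counts and 1 to 3 when 1 library was left out. A minimum of 20 counts left 7 detected genes, and a minimum of 5 gave 14. When 1 library was left out, the median log2 fold change ran from -0.20 (without ethanol replicate 1) to 0.28, and the log2 difference of the summed level from -0.10 to 0.23.

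LOC103693854 stayed above 0 throughout (0.76 to 1.13 when 1 library was left out, adjusted p 0.534 to 1 over its 14 alternatives) and LOC102552674 below 0 (-0.65 to -0.32), as did LOC690106 (-0.70 to -0.15). The 1 gene under an unadjusted p of 0.05 without ethanol replicate 1 was LOC102552674, in place of LOC103693854. Of 168 single-gene alternatives, 13 changed direction, in 9 genes, and the cause was not tested. The other end of the range when 1 library was left out was 0.50 for LOC684995, 0.28 for LOC290156, 0.51 for Tcrva8, 0.59 for Trav14s1, -0.27 for LOC100360242, -0.56 for Travl2, 0.53 for LOC682708, 0.36 for LOC685051 and 0.46 for LOC102555014. Without control replicate 1, LOC684995 was at -0.10, LOC682708 at -0.0093 and LOC685051 at -0.23. Without control replicate 2, LOC290156 was at -0.066 and LOC100360242 at 0.37. Without ethanol replicate 1, Trav14s1 was at -0.21, LOC685051 at -0.30 and LOC102555014 at -0.20. Without ethanol replicate 2, Tcrva8 was at -0.33 and LOC100360242 at 0.16, and without ethanol replicate 3 Travl2 was at 0.035. LOC100360242 was at 0.028 with limma-voom and at 0.0014 with the replicate block. Deviations of libraries with the same replicate number correlated by 0.0256, 0.388 and 0.210 over 14242 genes, while control 1 correlated best with ethanol 3 (0.305), so the numbers were not taken to pair the libraries. The block changed no other call of the window.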

Other observations

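One relation was looked for after the data had been seen. Slc17a7, the vesicular glutamate transporter of cortical-type excitatory neurons, varied between libraries from 27016 to 56551 counts, with control 1 and ethanol 3 lowest. Its log2 CPM over the 6 libraries was set against that of each of the 12 detected genes, which makes 12 relations. LOC684995 had the closest over all 6 libraries, with Pearson's r = 0.865 (exact permutation p = 0.0167, adjusted over the 12 relations 0.1) and Spearman's rho = 0.943 (exact permutation p = 0.0167, adjusted 0.2). Without control 1 and ethanol 2, the libraries farthest from the median of Slc17a7, its r was 0.823. Tcrva8 had r = 0.844 (exact permutation p = 0.0111, adjusted 0.1) and rho = 0.886 (exact permutation p = 0.0333, adjusted 0.2), and its r without those libraries was 0.852. LOC103693854 had r = 0.268 (exact permutation p = 0.588, adjusted 0.783), and -0.342 without those libraries. LOC690106 went from r = 0.395 (exact permutation p = 0.390, adjusted 0.757) to 0.913 without them, above both of the first genes. The order of the relations thus changed when those libraries were left out together. The libraries of both groups were pooled, since 3 libraries per group are too few for a value within a group. None of the 12 relations passed an adjusted p of 0.05, a stricter limit than the 0.2 used for the groups. The adjusted Pearson values of LOC684995 and Tcrva8 (0.1 each) lay below 0.2, and their adjusted Spearman values did not.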
